A study of Mus musculus with 12 samples.

Results

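The 9 genes described here mark the cellular response to low oxygen and the glycolysis that goes with it. They were chosen by symbol, and they take up 10 of the 31053 gene rows counted in every library, because Aldoa is listed under 2 Ensembl identifiers. They were followed in sorted brain myeloid cells to see whether the way the tissue was taken apart left a hypoxic or glycolytic mark. Cells positive for CD45 and CD11b, a gate in which brain-resident microglia prevail, were taken from 12 male mice of the inbred C57BL/6J strain at postnatal day 90, 1 whole brain per library. In DNC-NONE (replicates 1, 2 and 3) and DNC-INHIB (replicates 4, 5 and 6) the brain was homogenized in a cold Dounce, and in ENZ-NONE (replicates 4, 5 and 6) and ENZ-INHIB (replicates 1, 2 and 3) it was digested warm with enzymes. The INHIB groups received the transcription inhibitors actinomycin D and triptolide from perfusion onward and the translation inhibitor anisomycin from dissection onward, and the NONE groups received none of them. The sort did not separate microglia from other myeloid cells, so fewer cells of a type and less RNA per cell cannot be told apart in the summed libraries. The labels place the libraries in 2 batches, each with 1 or 2 libraries of every group.

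Hypoxia-inducible factor 1 is a pair of proteins, of which the alpha subunit is destroyed while oxygen is plentiful and accumulates when oxygen falls. It then binds short elements near glycolytic, vascular and mitophagy genes and raises their transcription, so that cells lean on glycolysis for ATP. Macrophages and microglia use the same programme when activated, also with oxygen present. Among the genes described, Hif1a encodes the alpha subunit and Vegfa the secreted vascular growth factor. Slc2a1 encodes the glucose transporter GLUT1, and Hk2, Pfkfb3, Aldoa, Pgk1 and Ldha encode enzymes from the first phosphorylation of glucose to the formation of lactate. Bnip3 encodes a mitochondrial protein that promotes mitophagy.

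The upstream sequences of 3 of these genes are shown because their promoters hold the short core that this factor is known to read. In RefSeq promoter windows on GRCm38.p6 (250 bases before to 50 bases after a start, both strands searched), all 9 genes held ACGTG in at least 1 window, against 21.8% of the 27025 genes with a window. The related core GCGTG was held by 5 of the 9, against 35.2% of all genes. Genes with several starts have several windows and so more room for a match, and for Aldoa and Vegfa the first window held neither core. The Vegfa matches lay only in its second window (upstream part chr17:46025164-46025413), which is inside the gene (chr17:46016993-46032369). The 9 genes were chosen as genes of this response, and windows were not matched in number or base composition. These shares are therefore a description and no test. The 250 bases before the start are printed 5′ to 3′ in the direction of the gene, in lower case, with both cores and their reverse complements in capitals. Where CACGTG occurs, the forward and reverse matches of ACGTG overlap and were counted as 2.
Ldha, chr7:46845554-46845803, plus strand: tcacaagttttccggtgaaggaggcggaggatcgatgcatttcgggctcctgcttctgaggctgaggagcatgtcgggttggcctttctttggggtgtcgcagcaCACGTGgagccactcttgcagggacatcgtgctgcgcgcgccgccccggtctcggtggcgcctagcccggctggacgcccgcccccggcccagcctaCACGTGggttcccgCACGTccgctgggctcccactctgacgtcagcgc
Pgk1, chrX:106186850-106187099, plus strand: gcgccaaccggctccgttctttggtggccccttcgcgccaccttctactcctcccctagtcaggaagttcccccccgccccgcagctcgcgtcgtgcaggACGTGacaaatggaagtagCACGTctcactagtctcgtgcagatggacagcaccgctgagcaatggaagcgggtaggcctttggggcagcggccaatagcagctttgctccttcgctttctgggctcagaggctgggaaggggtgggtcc
Bnip3, chr7:138909507-138909756, minus strand: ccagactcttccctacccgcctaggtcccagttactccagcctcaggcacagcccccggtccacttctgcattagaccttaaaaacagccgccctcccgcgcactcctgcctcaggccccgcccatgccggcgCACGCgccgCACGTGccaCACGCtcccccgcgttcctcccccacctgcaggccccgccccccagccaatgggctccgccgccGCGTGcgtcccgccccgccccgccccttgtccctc
The Ldha stretch held 5 matches of ACGTG, the Pgk1 stretch 2, and the Bnip3 stretch 2 of ACGTG and 3 of GCGTG. A match describes these letters and is no measure of binding.

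Of 28426 deposited barcodes, 18830 were kept (at least 1000 UMIs and 500 genes, at most 10% mitochondrial UMIs), and their UMIs were summed per library to between 1062871 and 3233159. The microglial marker list summed to between 33273 and 38400 counts per 1000000 kept UMIs (CPM) in the 12 libraries. The neutrophil list (6 of 6 genes seen in DNC-NONE) ranged from 0.4 to 4050 CPM in DNC-NONE, from 6.1 to 390 in DNC-INHIB, from 0.9 to 10.99 in ENZ-NONE and from 0 to 531 in ENZ-INHIB, and the monocyte list from 153 to 269 CPM in DNC-NONE against 27.7 to 178 in the other groups. Within the monocyte list, Chil3 alone was at 148.2 CPM in DNC-NONE replicate 3, against 34.8 and 48.9 in replicates 1 and 2. ENZ-NONE replicate 6 stood apart in that 23.97% of its cells held UMIs of both Fos and Dusp1, immediate-early genes, against 5.92% and 6.17% in replicates 4 and 5. Of the kept barcodes, 236 occurred in 2 libraries and none in more. The UMIs of the 9 genes came to 30795 in all. Counts at 3′ ends were not divided by length, so levels of different genes were not ranked against each other.

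Hif1a, the regulator of the programme (chr12:73901375-73947530, plus strand, GRCm38), was detected in every library with 47 to 147 UMIs. It stood at 44.4, 44.2 and 52.2 CPM in DNC-NONE and at 36.1, 54.4 and 45.5 in DNC-INHIB. With digestion it was at 55.1, 64.4 and 53.1 CPM in ENZ-NONE and at 63.0, 55.0 and 42.5 in ENZ-INHIB. All 3 ENZ-NONE values lay above the 3 DNC-NONE values, and the inhibitor groups of both methods overlapped. The mean was 57.5 ± 6.04 CPM (SD, n = 3) in ENZ-NONE and 46.9 ± 4.53 in DNC-NONE, a log2 fold change of 0.32 (SE 0.13) that did not pass the test (adjusted p = 0.653). Averaged over both inhibitor states, digestion against Dounce gave 0.27 (SE 0.11, adjusted p = 0.284). Within batch 1 the Dounce means were 44.3 CPM without inhibitors and 36.1 with them, against 59.8 in ENZ-NONE and 63.0 in ENZ-INHIB. Within batch 2 they were 52.2 and 49.9 against 53.1 and 48.8, so that the gap between methods was seen in batch 1, with 1 or 2 libraries behind each of these means. Hif1a overlaps Gm49321 on its own strand, and its count may not hold every read of the shared stretch. The genes whose log2(CPM + 1) followed Hif1a most closely over the 12 libraries were Rsph3a (Pearson's r = 0.885), Ap1m1 (0.857) and Tab1 (0.847), a description over libraries that differ in depth and batch.

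Vegfa, the secreted target best known from hypoxic tissue, was barely detected. It had 9 UMIs in all 12 libraries, with 2 in DNC-NONE, 1 in DNC-INHIB, 3 in ENZ-NONE and 3 in ENZ-INHIB. The 3 UMIs of ENZ-NONE all came from replicate 5. These counts are at or under the floor of 3 counts per group, no fold is given, and the gene was too low to be tested. Of its receptor genes, Nrp1 stood at 69.5 CPM, Nrp2 at 17.7, Kdr at 3.3 and Flt1 at 0.6 in the mean of the 4 groups. Flt1 had 0 to 3 UMIs per library and was, like Vegfa, barely detected.

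Slc2a1, the glucose transporter gene (chr4:119108711-119137983), was at 38.0, 39.5 and 35.5 CPM in DNC-NONE and at 37.1, 33.4 and 35.9 in DNC-INHIB. It was at 38.6, 40.3 and 36.6 CPM in ENZ-NONE and at 33.4, 33.2 and 26.9 in ENZ-INHIB. The 3 ENZ-INHIB values were the lowest of the 12 libraries, but the highest of them (replicate 1) and DNC-INHIB replicate 5 were level at 33.4 CPM. ENZ-NONE exceeded ENZ-INHIB by a log2 fold change of 0.34 (SE 0.14), which did not pass the test (adjusted p = 0.994) and was 0.10 with the sums thinned to the smallest library. The fold of 1.27 had an interval from 1.03 to 1.56.

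Hk2, the hexokinase that traps glucose in the cell (chr6:82725025-82774454), was at 250.5, 221.1 and 237.6 CPM in DNC-NONE and at 188.7, 232.6 and 227.6 in DNC-INHIB. It was at 221.8, 247.3 and 220.9 CPM in ENZ-NONE and at 213.3, 196.7 and 213.6 in ENZ-INHIB. The groups overlapped, apart from DNC-NONE and ENZ-NONE lying above ENZ-INHIB. ENZ-NONE and DNC-NONE differed by -0.0023 on the log2 scale (SE 0.10), with an interval of the fold from 0.852 to 1.17. Pfkfb3, whose product makes the activator of phosphofructokinase, was at 46.4, 48.9 and 42.7 CPM in DNC-NONE and at 44.7, 44.5 and 50.7 in DNC-INHIB. With digestion it was at 49.1, 52.7 and 65.2 CPM in ENZ-NONE and at 56.0, 39.2 and 49.5 in ENZ-INHIB. Each ENZ-NONE value was above each DNC-NONE value, the highest being replicate 6. The log2 fold change of 0.34 (SE 0.15) did not pass the test (adjusted p = 0.701) and was 0.17 without ENZ-NONE replicate 6.

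Aldoa, the aldolase gene (chr7:126795234-126800751), was the member with the most UMIs, 11490 in all. It ran from 419 to 483 CPM in DNC-NONE, from 402 to 443 in DNC-INHIB, from 422 to 435 in ENZ-NONE and from 408 to 437 in ENZ-INHIB, so that all 4 groups overlapped. Over the 6 comparisons of pairs its fold intervals stayed between 0.806 and 1.25. The second Aldoa identifier (chr7:126800790-126809108) held 1 UMI in all libraries together. Pgk1, the phosphoglycerate kinase gene on the X chromosome (chrX:106187100-106203699), was at 72.8, 82.8 and 81.0 CPM in DNC-NONE and at 68.4, 74.1 and 78.6 in DNC-INHIB. With digestion it was at 78.1, 98.9 and 83.9 CPM in ENZ-NONE and at 76.5, 76.9 and 74.4 in ENZ-INHIB. The highest value belonged to ENZ-NONE replicate 5. ENZ-NONE exceeded DNC-NONE by 0.18 on the log2 scale (SE 0.12), with an interval of the fold from 0.948 to 1.36 (adjusted p = 0.851).

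Ldha, which encodes the lactate dehydrogenase subunit that favours lactate (chr7:46841475-46855627), was at 251.3, 270.0 and 218.7 CPM in DNC-NONE and at 209.1, 237.9 and 222.4 in DNC-INHIB. It was at 209.8, 215.4 and 283.2 CPM in ENZ-NONE and at 201.5, 200.1 and 212.4 in ENZ-INHIB. The high ENZ-NONE value was again replicate 6, and the 3 DNC-NONE values lay above all of ENZ-INHIB. ENZ-INHIB against DNC-NONE gave -0.25 on the log2 scale (SE 0.11, adjusted p = 0.432). The neutrophil and monocyte lists also reached their highest levels in DNC-NONE. S100a8, of the neutrophil list, stood at 0, 491.1 and 1425.9 CPM in DNC-NONE replicates 1, 2 and 3. Ldha stood at 251.3, 270.0 and 218.7 CPM in the same replicates, so the replicate with the most S100a8 had the lowest Ldha of the 3. This Ldha change stayed between -0.39 and -0.18 on the log2 scale in 16 alternatives. Among them was the fit without cells that held at least 2 border macrophage or monocyte marker genes. The part of neutrophils was not tested. Without ENZ-NONE replicate 6, Ldha in ENZ-NONE against DNC-NONE moved from -0.01 to -0.19 on the log2 scale and was not called.

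Bnip3, the mitophagy gene (chr7:138890836-138909519), was at 50.4, 48.0 and 45.5 CPM in DNC-NONE and at 66.1, 43.7 and 53.5 in DNC-INHIB. It was at 60.1, 68.3 and 53.5 CPM in ENZ-NONE and at 68.4, 59.9 and 58.5 in ENZ-INHIB. The 6 values of the digested groups all lay above the 3 of DNC-NONE, while DNC-INHIB spanned both. Of the 72 fits of a member to a comparison, ENZ-INHIB against DNC-NONE in Bnip3 had the smallest unadjusted p, 0.37 on the log2 scale with an SE of 0.12, and its adjusted p by edgeR's quasi-likelihood test was 0.237. Digestion averaged over inhibitors gave 0.28 (SE 0.09, adjusted p = 0.169), and with batch as a covariate the adjusted p was 0.0652, the smallest over its 20 alternatives. In batch 1 the Dounce means were 49.2 CPM without and 66.1 with inhibitors, against 64.2 in ENZ-NONE and 68.4 in ENZ-INHIB. In batch 2 they were 45.5 and 48.6 against 53.5 and 59.2.

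**Figure D1:**
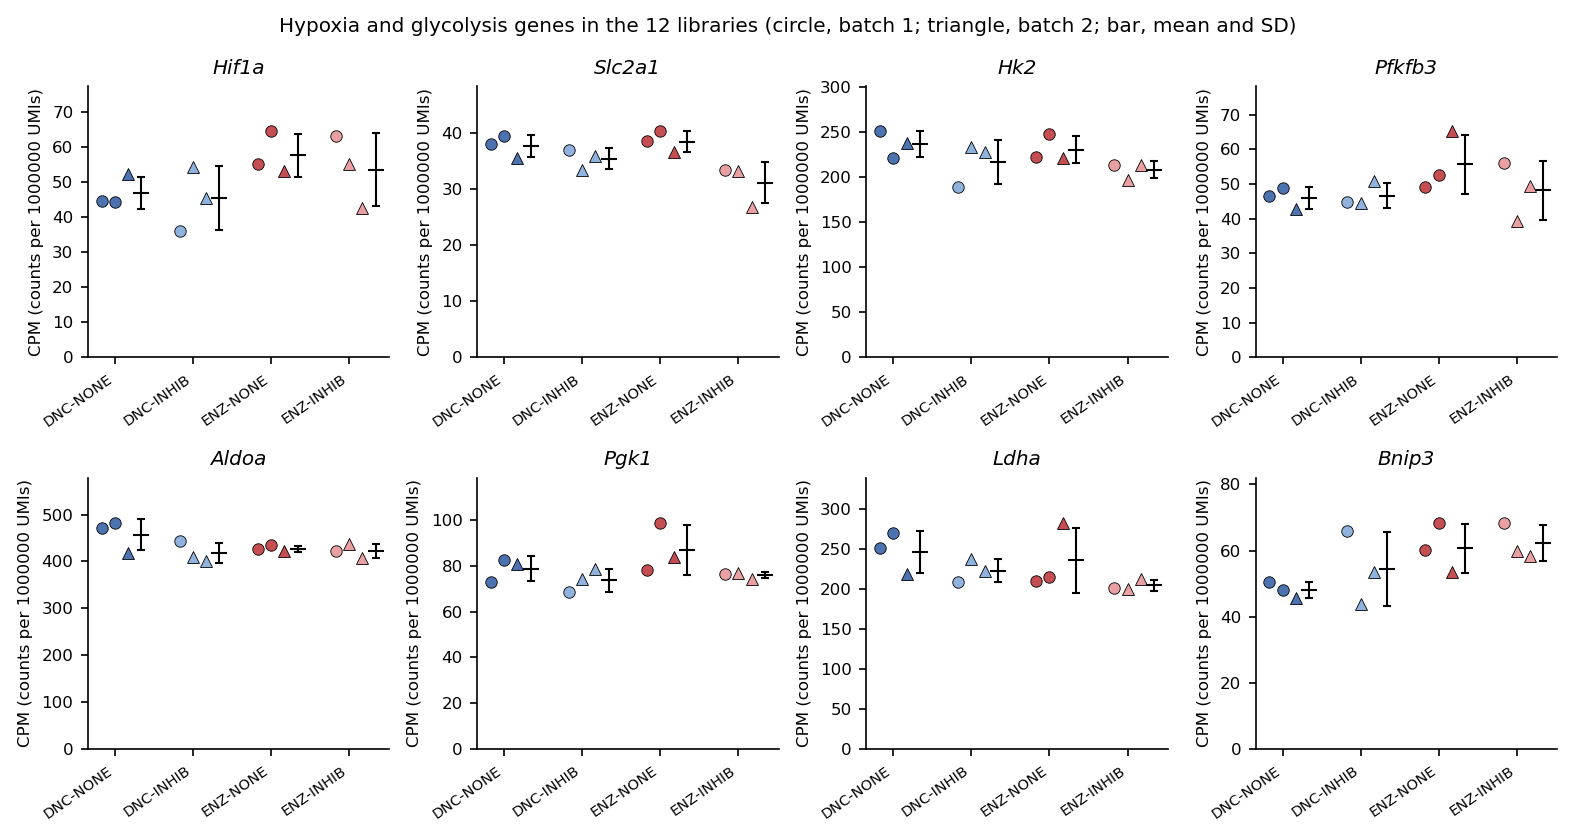
Level of 8 genes in CPM (linear axes from 0) in each of the 12 libraries, 3 per preparation, with circles for batch 1, triangles for batch 2 and black bars for the mean and SD of the 3 libraries. Bnip3 lies between 53.5 and 68.4 CPM in the 6 digested libraries and between 45.5 and 50.4 in DNC-NONE, while the 4 groups overlap for Aldoa.

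None of the 8 tested rows was called in any comparison of the preparations (edgeR's quasi-likelihood test, Benjamini-Hochberg adjusted p under 0.05 and a log2 fold change over 0.58 in size, over 9884 genes). Vegfa and the second Aldoa identifier were too low to be tested. ENZ-NONE against DNC-NONE, the comparison in which warm digestion acted without inhibitors, called 0.405% of all genes. In that comparison 3 of the 8 members (Hif1a, Pfkfb3 and Bnip3) had an unadjusted p under 0.05, against 6.89% of all genes, and by DESeq2 none did. The median log2 fold change of the 8 was 0.13 (5 positive), beside 0.0019 over all genes. The same fit gave 5.74 for Fos and 6.31 for Dusp1, which were called. The member median was 0.20 in ENZ-NONE against ENZ-INHIB (7 positive) and 0.175 against DNC-INHIB (8 positive). It was 0.0767 in DNC-NONE against DNC-INHIB (6), 0.026 in ENZ-INHIB against DNC-INHIB (5) and -0.0675 in ENZ-INHIB against DNC-NONE (3). The summed members ran from 1132 to 1238 CPM in DNC-NONE, 1094 to 1129 in DNC-INHIB, 1138 to 1224 in ENZ-NONE and 1087 to 1135 in ENZ-INHIB.

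The other comparisons called 0.344% of all genes (ENZ-NONE against ENZ-INHIB), 0.0304% (DNC-NONE against DNC-INHIB), 0.344% (ENZ-INHIB against DNC-INHIB), 0.314% (DNC-NONE set beside ENZ-INHIB) and 0.799% (ENZ-NONE against DNC-INHIB), and no member in any of them. Unadjusted p-values under 0.05 were found for 1, 0, 0, 2 and 3 of the 8 members in that order, beside 4.77, 5.09, 10.1, 10.4 and 9.21% of all genes, and by DESeq2 for 0, 0, 0, 2 and 0 members. These comparisons share groups and are not independent of each other. Averaged over inhibitors, digestion against Dounce called 0.9% of genes and no member, with 2 members at an unadjusted p under 0.05 by each tool, beside 12.9% of all genes by edgeR. Averaged over methods, inhibitors absent against present called 0.223% and no member, with 3 members (Slc2a1, Hk2 and Ldha, all higher without inhibitors) at an unadjusted p under 0.05 by edgeR, beside 6.98% of all genes, and 1 by DESeq2. The interaction of method and inhibitors called 0.172% and no member, with none at an unadjusted p under 0.05 by either tool. No member was called under any of the 152 alternative fits of these 9 comparisons.

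The precision of these values bounds what was missed among the 8 tested rows, while Vegfa has no interval. Over the 6 pairs, 48 of 48 intervals of the members (95%) lay within 2-fold in either direction and 40 of 48 within 1.5-fold, and the farthest bound was 1.61-fold, for Hif1a in ENZ-NONE against DNC-INHIB. Within 1.5-fold lay 5 of 8 in ENZ-NONE against DNC-NONE, and 6 of 8 in ENZ-NONE against each INHIB group. It was 7 of 8 in ENZ-INHIB against DNC-NONE and 8 of 8 in the remaining pairs. Of the 48 intervals, 39 held no change, and the other 9 belong to the members with an unadjusted p under 0.05 counted above.

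**Figure D2:**
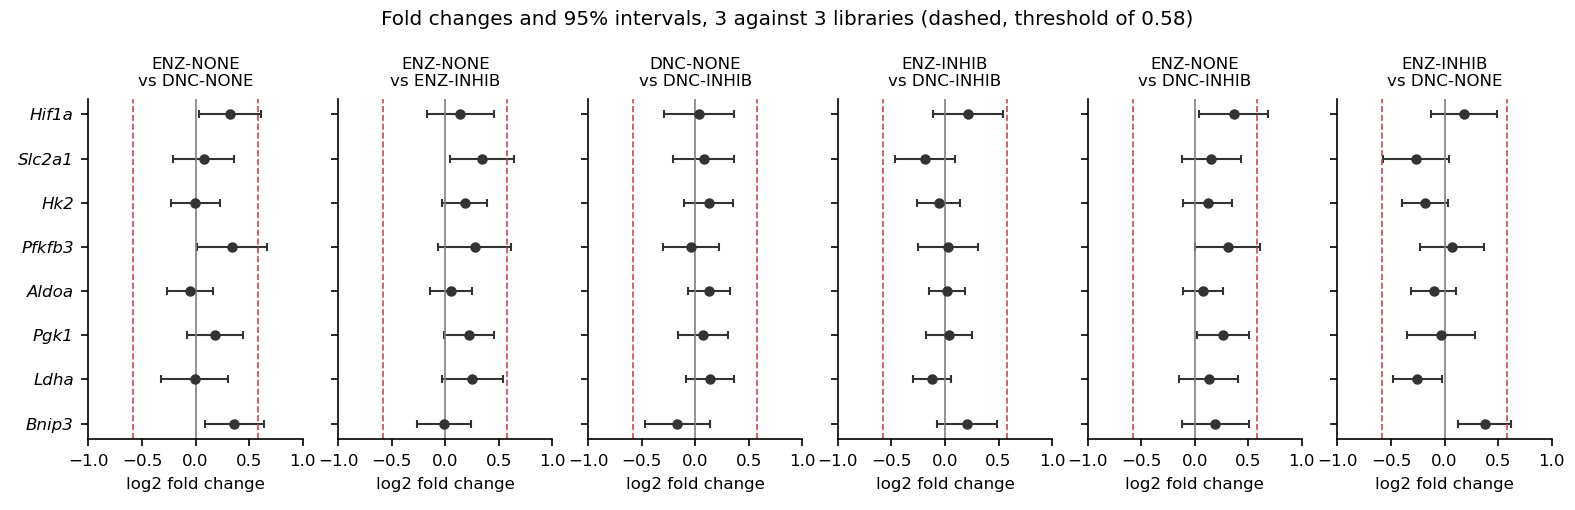
Log2 fold change (x axis) of 8 genes in the 6 comparisons of preparations, 3 against 3 libraries, as points with 95% intervals, with dashed lines at the threshold of 0.58. All 48 points lie inside the dashed lines, the farthest at 0.37 for Bnip3 in ENZ-INHIB against DNC-NONE.

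The rest of the pathway was read from lists of glycolytic enzymes (14 of 18 identifiers tested), sugar and lactate transporters (6 of 7), the HIF pathway (7 of 10), hypoxia targets (22 of 31) and VEGF receptors (3 of 4), some of which hold members. In ENZ-NONE against DNC-NONE, no gene counted in these 5 lists was called by edgeR or DESeq2. At an unadjusted p under 0.05, edgeR found 0 glycolytic enzymes, 1 transporter, 2 HIF pathway genes, 5 hypoxia targets and 1 VEGF receptor in it, beside 6.89% of all genes. DESeq2 found 0, 0, 1, 0 and 1 in that order. Changes of either sign were counted. On the log2 scale the transporters ran from -0.77 to 0.075 (4 of 6 positive) and the HIF pathway from -0.075 to 0.55 (6 of 7). The hypoxia targets ran from -1.09 to 0.36 (10 of 22 positive) and the VEGF receptors from -0.43 to 0.31 (1 of 3). The median log2 fold change of the 14 glycolytic enzymes was 0.03, and that of the 22 hypoxia targets was -0.0014. The summed level of the glycolytic list ran from 3105 to 3275 CPM in DNC-NONE, 3009 to 3080 in DNC-INHIB, 3055 to 3135 in ENZ-NONE and 3040 to 3099 in ENZ-INHIB. Among its genes, Ldhb (lactate dehydrogenase B) averaged 717 CPM and Eno1 (enolase) 367 over the groups. Slc2a5, the fructose transporter gene known as a microglial marker, averaged 581 CPM, and the hypoxia targets P4ha1 and Bnip3l averaged 260 and 253 CPM. Adm had 0 of 26851505 UMIs, which allows a level of up to 0.112 CPM (3 counts, counting error only).

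Cited2, whose product competes with hypoxia-inducible factor for its coactivator, was at 104.2, 83.9 and 170.0 CPM in ENZ-NONE against 70.6 to 93.6 in DNC-NONE. Its log2 fold change of 0.55 was not called (adjusted p = 0.658) and was 0.17 without ENZ-NONE replicate 6. Against ENZ-INHIB it was 0.73 (adjusted p = 0.575), called with no filter on low counts (0.72, adjusted p = 1.1e-07) and with batch as a covariate (0.87, adjusted p = 0.0150), and 0.34 without ENZ-NONE replicate 6. Against DNC-INHIB it was 0.56 (adjusted p = 0.376), called with batch as a covariate (0.76, adjusted p = 0.0014), and 0.17 without that library. Ddit4, a stress gene that restrains mTOR and one of the hypoxia targets, fell in ENZ-NONE against DNC-INHIB by 1.51 on the log2 scale (adjusted p = 0.0356), with 68.4, 26.7 and 39.6 CPM against 152.1, 179.8 and 76.4. DNC-NONE held 142.9, 67.7 and 49.4 CPM and ENZ-INHIB 89.96, 94.98 and 29.2. The Ddit4 fold stayed between -1.91 and -1.25 on the log2 scale in 16 alternatives, and the call was lost in 6 of them. These were the fits without DNC-INHIB replicate 4 (adjusted p = 0.191) or 5 (0.186), without ENZ-NONE replicate 5 (0.137), with DESeq2 (0.222), with all deposited barcodes (0.0608) and in 1 fit on all 12 libraries (0.124).

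**Figure D3:**
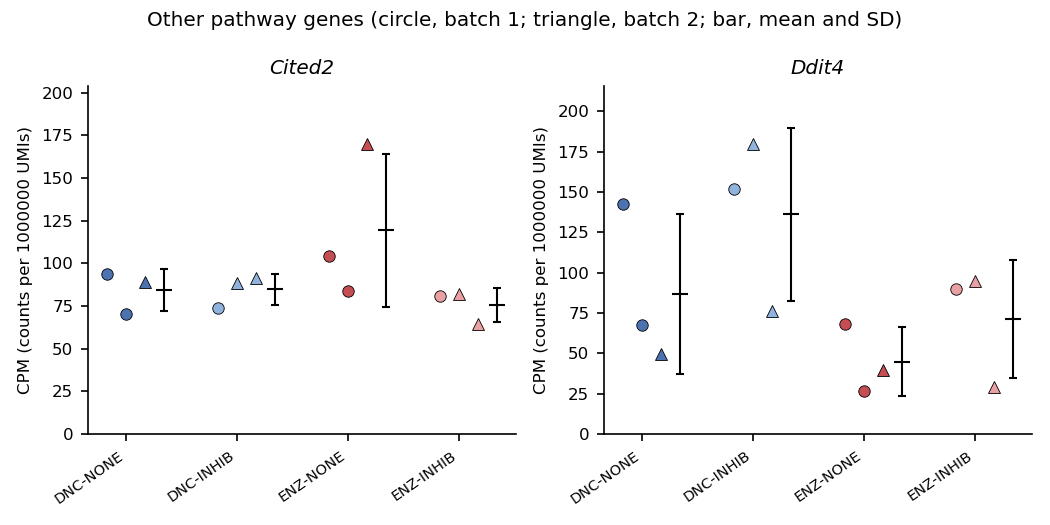
Level of Cited2 and Ddit4 in CPM (linear axes from 0) in the 12 libraries, with circles for batch 1, triangles for batch 2 and black bars for the mean and SD of 3 libraries. ENZ-NONE replicate 6 is the high point for Cited2, at 170.0 CPM, and Ddit4 lies between 26.7 and 68.4 CPM in ENZ-NONE and between 76.4 and 179.8 in DNC-INHIB.

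Immediate-early transcripts were not spread evenly over the cells of a preparation, so the genes were also compared between cells of the same libraries. In ENZ-NONE, 581 of 4437 cells (93, 69 and 419 in replicates 4, 5 and 6) held UMIs of both Fos and Dusp1. Summed per library and set against the other cells with the library as a block, 1.90% of 8143 genes were called and none of the 8 members. At an unadjusted p under 0.05 there were 2, Pfkfb3 and Hk2, against 9.69% of all genes. DESeq2 was not run on cells split within libraries. Pfkfb3 was at 80.1, 80.3 and 90.7 CPM in the double-positive cells and at 46.8, 50.8 and 56.3 in the others, higher in 3 of 3 libraries. Its fold was 1.69 (interval 1.25 to 2.29) with an adjusted p of 0.077, from 84 UMIs in the double-positive cells. Hk2 was at 166.9, 170.6 and 195.6 CPM against 225.8, 252.6 and 229.7, lower in 3 of 3 libraries (log2 fold change -0.27, adjusted p = 0.509). Hif1a and Bnip3 were also lower and Ldha higher (266 against 233 CPM in the mean) in 3 of 3, none of them called. In the double-positive cells of the 3 libraries together, Hif1a had 45 UMIs, Bnip3 46 and Ldha 267, so single libraries held few of the first 2.

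Outside the members, Cited2 passed the test in the double-positive cells. It stood at 273.7, 170.6 and 367.2 CPM there against 91.7, 77.9 and 101.3 in the other cells, a log2 fold change of 1.75 (adjusted p = 4.6e-07) that was called in all 4 alternatives. The double-positive cells averaged 1643 UMIs and the others 1424, and the part of depth in these values was not tested.

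**Figure D4:**
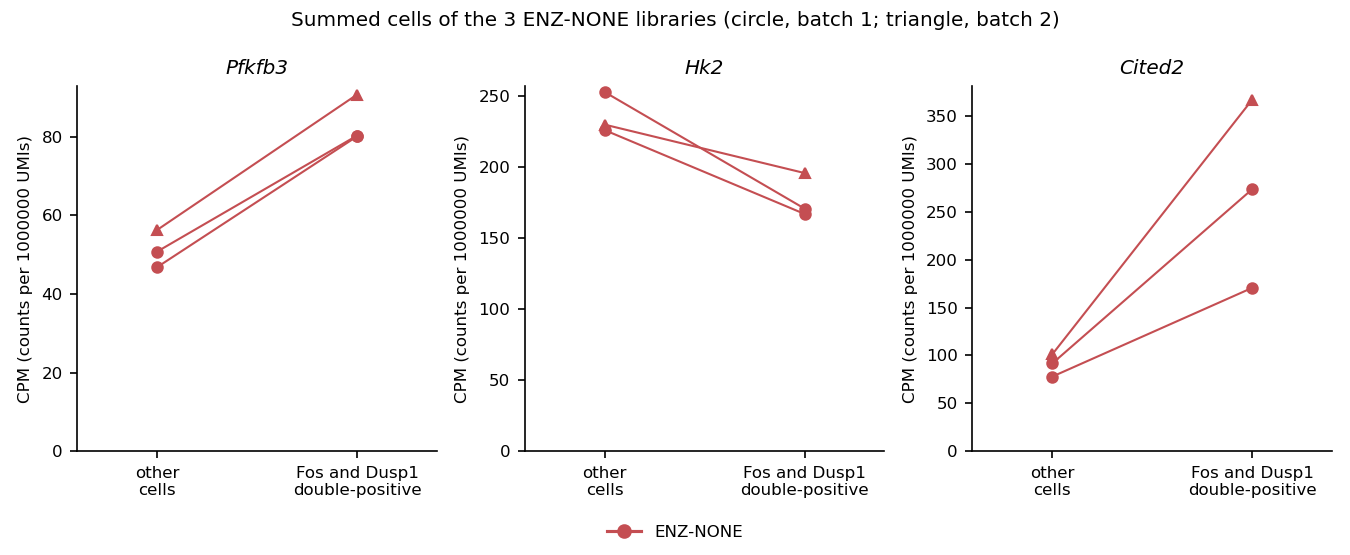
Level in CPM (linear axes from 0) of 3 genes in the Fos and Dusp1 double-positive cells and the other cells of each of the 3 ENZ-NONE libraries, joined by lines, with circles for batch 1 and a triangle for batch 2. Pfkfb3 and Cited2 lie higher in the double-positive cells of all 3 libraries and Hk2 lower, and of these Cited2 passed the test.

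The sorted cells also held cells with markers of border macrophages or monocytes, called macrophage-marker cells here. Of the marker genes used, 7 are of the border macrophage list and 5 of the monocyte list, and cells of both kinds were not separated. Cells with UMIs of at least 2 of 12 border macrophage and monocyte marker genes (among them Mrc1, Pf4, Ms4a7 and Ccr2) numbered 400 of 18830, or 1.23 to 5.26% per library, with the highest share in DNC-NONE replicate 2. Against the other cells of the same libraries 33.3% of 6263 genes were called, and 2 of the 8 members, Hk2 and Ldha, a share no higher than that of all genes. Hk2 ran from 21.9 to 133.9 CPM (median 101) in the macrophage-marker cells and from 189.8 to 258.8 (median 229) in the others. It was lower in 12 of 12 libraries, the ranges did not overlap, and the fold was 0.441 (interval 0.341 to 0.569, log2 fold change -1.18, adjusted p = 3.5e-09). Ldha ran from 165 to 412 CPM (median 343) against 198 to 278 (median 216), higher in 9 of 12 libraries, with a log2 fold change of 0.60 (adjusted p = 0.00010).

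The Ldha call was lost without the DNC-INHIB libraries (0.49) or the ENZ-NONE libraries (0.51), where the fold fell under the threshold, and with at least 3 marker genes required (0.13, adjusted p = 0.63). The Hk2 call held in all 5 alternatives, between -1.44 and -1.10 on the log2 scale. The members not called in this split were Slc2a1 (-0.61, 16 UMIs in the macrophage-marker cells), Pfkfb3 (-0.32), Bnip3 (-0.29), Pgk1 (0.30), Hif1a (0.12) and Aldoa (0.03). The macrophage-marker cells averaged 1888 UMIs against 1416 in the others. Leaving these cells out of the preparations changed no call of a member.

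**Figure D5:**
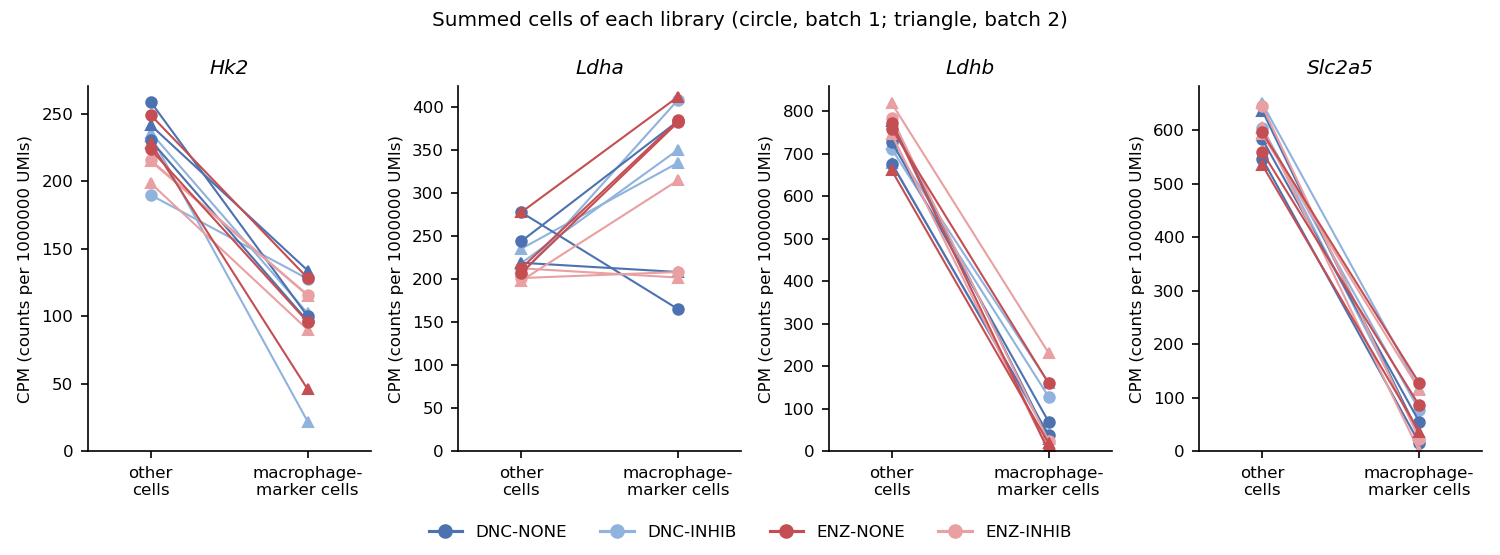
Level in CPM (linear axes from 0) of Hk2, Ldha, Ldhb and Slc2a5 in the macrophage-marker cells and the other cells of each of the 12 libraries, joined by lines and coloured by preparation, with circles for batch 1 and triangles for batch 2. Hk2, Ldhb and Slc2a5 lie lower in the macrophage-marker cells of all 12 libraries, while Ldha is higher in 9 of 12.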

How the data were processed

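The authors aligned and counted 10X Genomics 3′ version 2 libraries with Cell Ranger 3.0.0 (mm10/GRCm38, per the labels) and deposited raw UMI counts per gene and called cell, 1 matrix per animal, without normalization. Collapsing to UMIs removes PCR copies, and counting intervals cover counting error alone. Gene positions are from GENCODE vM21 (99.9% of identifiers matched).

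Cells with at least 1000 UMIs, 500 genes and at most 10% mitochondrial UMIs were summed per library, and no doublet caller was run. Groups were compared with edgeR 4.0.16 (R 4.3.3, TMM, filterByExpr, quasi-likelihood test, 3 against 3 libraries, or all 12 for averages and the interaction). Calls needed a Benjamini-Hochberg adjusted p under 0.05 and a log2 fold change over 0.58 in size. Intervals are 95%, and follow the Poisson bound where the test used it. CPM is the UMI count per 1000000 kept UMIs. Splits of cells used the library as a block. The fits were tested on simulated data. DESeq2 1.42.0 and other settings were alternatives.

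The members and lists were chosen with earlier results of these data known, and 1 listed gene is not reported here and was left out of the counts by list. Named genes are the members, list genes that were called, and some of the genes with the highest CPM in each list. Replicate pairs differed by more than sampling noise, so each library counted once.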

Additional observations from a re-analysis of the deposited data

How the results depend on the processing

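Members were called in none of the 152 alternative fits of the 9 comparisons between preparations. Over these comparisons and both splits of cells, the fold changes of members kept their sign in all but 23 of 688 values and 30 of 600 leave-one-out values. The count of all genes called moved more. The main counts were 40 in ENZ-NONE against DNC-NONE, 34 in ENZ-NONE against ENZ-INHIB, 3 in DNC-NONE against DNC-INHIB, 34 in ENZ-INHIB against DNC-INHIB, 79 in ENZ-NONE against DNC-INHIB, 31 in ENZ-INHIB against DNC-NONE, 89 in averaged digestion, 22 in averaged inhibitors and 17 in the interaction. With no filter on low counts the count was 190 in ENZ-NONE against DNC-NONE, 140 in ENZ-NONE against ENZ-INHIB, 87 in DNC-NONE against DNC-INHIB, 111 in ENZ-INHIB against DNC-INHIB, 216 in ENZ-NONE against DNC-INHIB, 210 in ENZ-INHIB against DNC-NONE, 236 in averaged digestion, 130 in averaged inhibitors and 73 in the interaction. In 1 fit on all 12 libraries the count was 61 in ENZ-NONE against DNC-NONE, 0 in DNC-NONE against DNC-INHIB, 15 in ENZ-INHIB against DNC-INHIB and 10 in ENZ-INHIB against DNC-NONE. With batch as a covariate the count was 76 in ENZ-NONE against ENZ-INHIB, 73 in ENZ-INHIB against DNC-INHIB and 156 in ENZ-NONE against DNC-INHIB. With all deposited barcodes the count was 0 in DNC-NONE against DNC-INHIB, 54 in ENZ-INHIB against DNC-INHIB and 20 in ENZ-INHIB against DNC-NONE. Without the cells above the 98th percentile of UMIs the count was 0 in DNC-NONE against DNC-INHIB and 11 in ENZ-INHIB against DNC-NONE. Without the macrophage-marker cells the count was 0 in DNC-NONE against DNC-INHIB and 9 in ENZ-INHIB against DNC-NONE. With sums thinned to the smallest library the count was 0 in DNC-NONE against DNC-INHIB, 18 in ENZ-INHIB against DNC-INHIB, 17 in ENZ-INHIB against DNC-NONE and 41 in averaged digestion. With a replicate block the count was 89 in ENZ-INHIB against DNC-NONE. Leaving out 1 library at a time gave 11 to 75 in ENZ-NONE against DNC-NONE, 17 to 46 in ENZ-NONE against ENZ-INHIB, 0 to 24 in DNC-NONE against DNC-INHIB, 12 to 72 in ENZ-INHIB against DNC-INHIB, 45 to 118 in ENZ-NONE against DNC-INHIB, 0 to 67 in ENZ-INHIB against DNC-NONE, 50 to 124 in averaged digestion, 8 to 28 in averaged inhibitors and 8 to 19 in the interaction. The lowest of these counts came without a DNC-NONE, DNC-INHIB or ENZ-INHIB library, and leaving out ENZ-NONE replicate 6 gave the highest counts in ENZ-NONE against DNC-NONE, in ENZ-NONE against DNC-INHIB and in averaged digestion. The cause was not tested. The replicate numbers did not pair the libraries (correlations of deviations from the group mean between -0.0829 and 0.155 for equal numbers), and with a replicate block no member was called.

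In the macrophage-marker split, 1 member in place of 2 was called with at least 3 marker genes, without the DNC-INHIB libraries and without the ENZ-NONE libraries. Signs that reversed belong to log2 fold changes that were not called, and their cause was not tested. With no filter on low counts they were 0.0092 for Hk2 in ENZ-NONE against DNC-NONE and 0.0046 for Ldha in ENZ-NONE against DNC-NONE. With all deposited barcodes they were -0.0144 for Slc2a1 in ENZ-NONE against DNC-NONE, 0.0729 for Ldha in ENZ-NONE against DNC-NONE, 0.0548 for Aldoa in ENZ-NONE against DNC-NONE, 0.0328 for Pfkfb3 in DNC-NONE against DNC-INHIB, 0.0208 for Bnip3 in DNC-NONE against DNC-INHIB, 0.00265 for Aldoa in ENZ-INHIB against DNC-NONE, 0.0483 for Aldoa in averaged digestion, 0.0132 for Aldoa in the interaction and -0.0547 for Bnip3 in the interaction. With sums thinned to the smallest library they were -0.0179 for Slc2a1 in ENZ-NONE against DNC-NONE, 0.0186 for Hk2 in ENZ-NONE against DNC-NONE, -0.0149 for Hif1a in DNC-NONE against DNC-INHIB, 0.13 for Slc2a1 in ENZ-INHIB against DNC-INHIB, 0.0575 for Slc2a1 in averaged digestion, -0.0107 for Pgk1 in the interaction and -0.15 for Slc2a1 in the interaction. With at least 3 marker genes they were -0.18 for Aldoa in the macrophage-marker split. Without the DNC-NONE libraries they were -0.16 for Aldoa in the macrophage-marker split and -0.13 for Hif1a in the macrophage-marker split. Without the ENZ-NONE libraries they were -0.0416 for Aldoa in the macrophage-marker split and -0.0081 for Hif1a in the macrophage-marker split. Over fits without 1 library they ran from -0.0495 to 0.0406 for Hk2 in ENZ-NONE against DNC-NONE, -0.19 to 0.0768 for Ldha in ENZ-NONE against DNC-NONE, -0.083 to 0.0532 for Bnip3 in ENZ-NONE against ENZ-INHIB, -0.0769 to 0.0412 for Pfkfb3 in DNC-NONE against DNC-INHIB, -0.0931 to 0.18 for Hif1a in DNC-NONE against DNC-INHIB, -0.0634 to 0.16 for Pfkfb3 in ENZ-INHIB against DNC-INHIB, -0.0141 to 0.10 for Pgk1 in ENZ-INHIB against DNC-INHIB, -0.00827 to 0.0552 for Aldoa in ENZ-INHIB against DNC-INHIB, -0.0553 to 0.22 for Ldha in ENZ-NONE against DNC-INHIB, -0.0208 to 0.20 for Pfkfb3 in ENZ-INHIB against DNC-NONE, -0.0427 to 0.00249 for Aldoa in averaged digestion, -0.00485 to 0.15 for Hk2 in the interaction, -0.0456 to 0.23 for Hif1a in the interaction, -0.0679 to 0.21 for Ldha in the interaction, -0.45 to 0.24 for Slc2a1 in the double-positive split and -0.11 to 0.11 for Aldoa in the double-positive split. Depth limited Vegfa, which could not be tested, and the splits, in which a member had 16 to 371 UMIs in the smaller part. The 2 batches hold unequal numbers of the groups, and 3 libraries a group leave wide intervals.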

Other observations

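The glycolytic genes outside the 9 members differed between the macrophage-marker cells and the other cells in both directions. Of all genes in this split 33.3% were called, 13.2% higher and 20% lower, and these shares stand beside each count by direction below. Of 14 glycolytic enzymes tested, members included, 4 were called higher (Eno1, Gpi1, Ldha and Pkm) and 3 lower (Hk2, Ldhb and Pfkl). Ldhb, the lactate dehydrogenase subunit usually tied to lactate use, ran from 0 to 231 CPM (median 35.6) in the macrophage-marker cells and from 661 to 818 (median 737) in the others. It was lower in 12 of 12 libraries, with a log2 fold change of -3.34 (adjusted p = 1.0e-74 by edgeR's quasi-likelihood test). Slc2a5, the fructose transporter gene, gave -3.40 and was also lower in 12 of 12. Gpi1, glucose-6-phosphate isomerase, gave 1.35 and was higher in 12 of 12, and Pkm, pyruvate kinase, gave 0.85 and was higher in 10 of 12, and its call was lost without the DNC-NONE libraries (0.57, under the threshold). Among 19 hypoxia targets tested, members included, 3 were called higher (Plin2, Ldha and Higd1a) and 5 lower (Pdk1, Hk2, P4ha1, Bnip3l and Mxi1). Plin2, a lipid droplet coat gene, averaged 191 ± 102 CPM (SD, n = 12) against 41.5 ± 8.20 and was higher in 12 of 12 libraries. Of 5 HIF pathway genes tested, Cited2 was called higher (0.92, 9 of 12 libraries, adjusted p = 3.5e-06 by edgeR's quasi-likelihood test) and Vhl, which encodes the protein that marks the alpha subunit for destruction, lower (-0.95, 11 of 12). The Vhl call rested on 18 UMIs in the macrophage-marker cells and was lost in 3 of 5 alternatives. The VEGF receptor gene tested, Nrp1, gave 1.43 and was higher in 12 of 12. The macrophage-marker cells were the deeper ones, and the part of depth was not tested.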
